A study of Rattus norvegicus with 16 samples.

Results

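Bdh1 encodes the mitochondrial 3-hydroxybutyrate dehydrogenase, the enzyme that interconverts acetoacetate and 3-hydroxybutyrate, and it was the 1 gene of 22517 listed gene symbols chosen here, by its symbol and its place among the ketone body synthesis enzymes. Its level was read in all 16 RNA sequencing libraries of liver and epididymal fat of 8 male rats of the obese Zucker strain ZDF/GmiCrl-fa/fa. All rats, controls included, carry a defect of the leptin receptor, so no group is a lean animal. The groups were LA liver and LA fat, from rats given Purina 5008 feed with R-α-lipoic acid (LA), and PF liver and PF fat, from rats pair-fed (PF) the same feed without it. Each group held 4 libraries, feeding lasted 2 weeks, and all rats were 11 weeks old at the end. Lipoic acid carries sulphur and serves the pyruvate and other oxoacid dehydrogenases of mitochondria as a cofactor.

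Ketone bodies are made in liver mitochondria from the acetyl-CoA that fatty acid oxidation releases. Acetyl-CoA thiolase (Acat1) starts a short chain of steps that ends in acetoacetate, and the Bdh1 enzyme reduces it to 3-hydroxybutyrate with NADH. Liver exports both acids, and other tissues, which have the succinyl-CoA transferase Oxct1 that liver lacks, run the same Bdh1 reaction in reverse to burn them.

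Levels are FPKM, in which the sequenced fragments of a gene are divided by the length of its transcript and by the size of the library, so levels of different genes can be set side by side per length. Each fold change below is on the log2(FPKM + 1) scale, which understates changes of low genes. Total read numbers are unknown, but the size of the steps between low values gives the relative depth. In units of LA liver replicate 1, a single fragment was worth 0.807 to 1 in LA liver, 0.954 to 1.12 in PF liver, 0.827 to 0.968 in LA fat and 0.866 to 1.07 in PF fat. Genes at 1 FPKM or more numbered 9644 to 9738 in LA liver, 9522 to 9689 in PF liver, 11276 to 11439 in LA fat and 11320 to 11480 in PF fat. The tissue labels matched their markers: 8 adipocyte markers summed to 58.1 to 72.0 FPKM over the liver libraries, against 34432 to 42793 FPKM over the fat libraries. Alb and Tf, among the most abundant hepatocyte transcripts, are listed at 0 in all 8 liver libraries, so a value of 0 in these files can be a failed estimate.

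Bdh1 was a high-ranking transcript of liver. It stood at 177, 168, 164 and 168 FPKM in the 4 LA livers. In the 4 PF livers it stood at 214, 188, 177 and 184 FPKM. All 8 livers lay within a narrow band, and PF liver replicate 1 was the highest of them. Among genes at 1 FPKM or more it ranked from 474 to 531 in LA liver and from 445 to 511 in PF liver, above at least 94.5% of them in every liver library.

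In fat Bdh1 was a transcript of middling rank. It stood at 9.18, 8.69, 9.63 and 6.35 FPKM in LA fat. In PF fat it stood at 10.7, 11.7, 7.73 and 12.1 FPKM. LA fat replicate 4 and PF fat replicate 3 were the low libraries of their groups, and the groups overlapped. Bdh1 exceeded 37.4% to 58.0% of the genes at 1 FPKM or more across the 8 fat libraries.

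**Figure D1:**
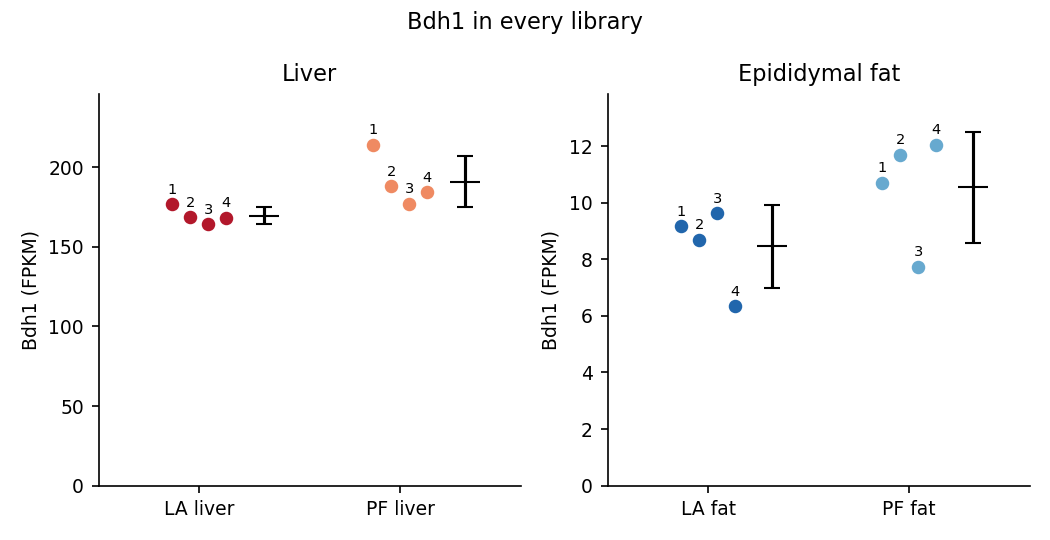
Bdh1 level in FPKM in every library of liver (left panel) and epididymal fat (right panel), LA beside PF, with replicate numbers at the points and the mean ± SD of 4 libraries as black bars. Every LA liver lies below every PF liver by a margin that is small at its narrowest (177 against 177 FPKM), while the fat groups overlap, and the panels differ in scale.

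The order of the group means was PF liver, LA liver, PF fat and LA fat. The mean level was 169.4 ± 5.32 FPKM in LA liver and 190.8 ± 16.2 FPKM in PF liver (SD, n = 4 each). It was 8.46 ± 1.46 FPKM in LA fat and 10.5 ± 1.96 FPKM in PF fat (SD, n = 4 each). Relative to the mean, the spread between rats was 3.14% in LA liver and 8.47% in PF liver, against 17.3% in LA fat and 18.6% in PF fat.

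The first comparison asked whether Bdh1 differed between tissues of rats on the same feed. Bdh1 was 20.0-fold higher in liver than in fat under LA and 18.1-fold higher under PF, by mean FPKM. The lowest liver library was 13.6-fold above the highest fat library. The log2 fold change of liver over fat was 4.18 under LA (SE 0.13, 95% interval 3.91 to 4.45, limma adjusted p = 8.86e-15) and 4.07 under PF (SE 0.13, interval 3.80 to 4.34, limma adjusted p = 1.26e-14). An exact two-sided permutation test gave p = 0.029 for each feed, the smallest that 4 against 4 libraries allow. Between these tissues differences are common: 45.8% of tested genes under LA and 46.5% under PF were called, at an adjusted p under 0.05 and a log2 fold change over 1 in size, and 79.7% and 79.8% did not overlap between the groups.

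FPKM values are shares of a library, and the median gene was lower in liver than in fat, by log2 fold changes of -0.65 under LA and -0.66 under PF. With each library centred on its median, Bdh1 stood 4.87 above fat under LA and 4.76 under PF. Centring also changed the balance of calls over all genes: 22.3% of called genes were higher in liver under LA and 23.1% under PF without it, against 47.8% and 49.0% with it, and 36.6% and 36.7% with upper-quartile scaling.

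The other enzymes of the synthesis list that are reported here did not share the size of the Bdh1 difference. Of 3 genes that could be tested, out of 4 in the files, 1 was called higher in liver under either feed, Bdh1 itself, and none lower. Over all tested genes 10.2% were called higher in liver under LA and 10.7% under PF. The median log2 fold change of the 3 was 0.60 under LA and 0.45 under PF.

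Acat1, the thiolase of the first step, was abundant in both tissues and higher in liver. It had 185, 178, 176 and 203 FPKM in LA liver, against 121, 121, 129 and 117 FPKM in LA fat. In PF liver it had 198, 205, 173 and 203 FPKM, against 153, 149, 122 and 146 FPKM in PF fat. The tissues did not overlap under either feed. Its log2 fold changes of 0.60 and 0.45 had limma adjusted p of 6.78e-06 and 0.000158 but were under the fold required for a call, which they passed with median centring, at 1.29 under LA and 1.135 under PF. Bdh2, a cytosolic dehydrogenase of the same broad superfamily, had 0.30 under LA and -0.22 under PF and was not called. The PF value of Bdh2 turned positive with median centring and with upper-quartile scaling. Hmgcll1, the remaining gene, was at most 0.374 FPKM in liver and 1.10 FPKM in fat and was too low to test.

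Set against liver, the fat level was 4.99% under LA and 5.53% under PF for Bdh1. For Acat1 it was 65.6% under LA and 73.3% under PF. As a ratio of FPKM within libraries, averaged on the log scale, Bdh1 stood at 0.914 of the Acat1 level in LA liver and 0.0687 in LA fat, and at 0.980 in PF liver and 0.0732 in PF fat.

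**Figure D2:**
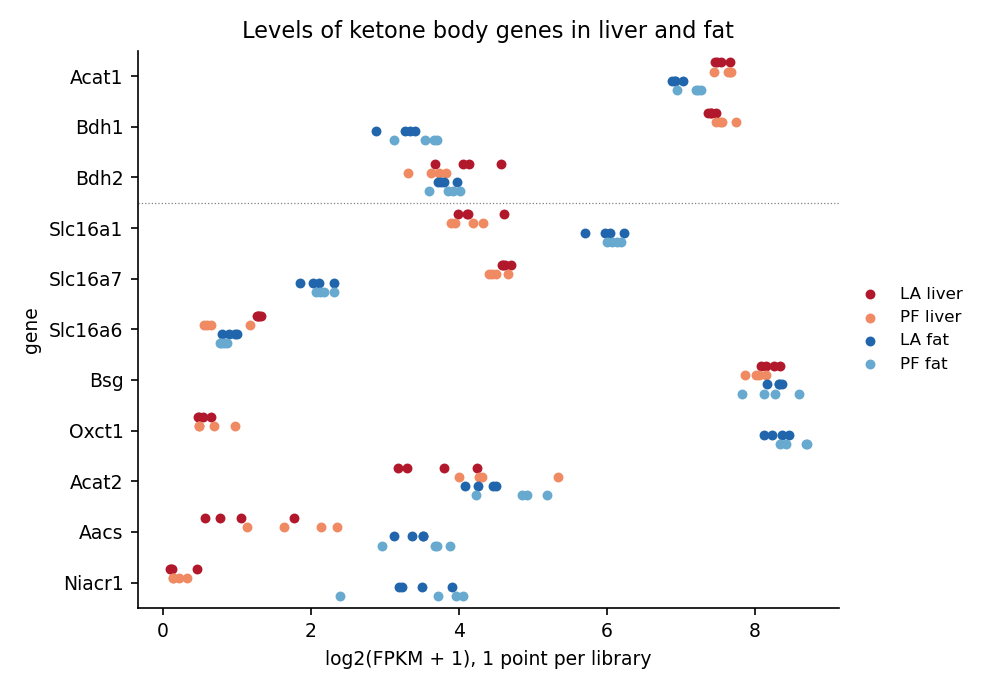
Levels of the synthesis genes (above the dotted line) and of the genes for use, transport and sensing of ketone bodies (below it) as log2(FPKM + 1), 1 point per library, with rows of points for LA liver, PF liver, LA fat and PF fat from top to bottom within each gene. Bdh1 and Slc16a7 are higher in liver, Oxct1, Slc16a1, Aacs and Niacr1 are higher in fat, and Bdh2 and Bsg overlap between the tissues.

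Of 8 tested genes that take up, use or sense ketone bodies, out of 11 in the files, 1 was called higher and 4 lower in liver than in fat under either feed. Over all tested genes 35.6% were called lower in liver under LA and 35.8% under PF. Oxct1, the enzyme that commits acetoacetate to oxidation, had 0.461, 0.579, 0.409 and 0.397 FPKM in LA liver, against 330, 300, 352 and 279 FPKM in LA fat. In PF liver Oxct1 had 0.412, 0.978, 0.402 and 0.615 FPKM, against 413, 343, 323 and 416 FPKM in PF fat. Fat thus held Bdh1 at a low level beside abundant Oxct1, and liver the reverse.

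Aacs, the cytosolic synthetase that directs acetoacetate to lipid synthesis, had log2 fold changes of -2.34 under LA and -1.74 under PF (limma adjusted p = 5.21e-07 and 1.69e-05). Slc16a1, the monocarboxylate transporter MCT1, had -1.78 and -2.01 (limma adjusted p = 2.29e-09 and 4.4e-10), and Slc16a7, the transporter MCT2, had 2.55 and 2.33 (limma adjusted p = 1.26e-13 and 4.03e-13). Niacr1, the older symbol of the 3-hydroxybutyrate receptor gene Hcar2, had -3.26 and -3.33 (limma adjusted p = 5.92e-09 and 4.49e-09). Oxct1 and Niacr1 were under 1 FPKM in every liver library. Both passed the filter of 1 FPKM in at least 4 libraries through fat, where they are high, so their calls are not independent of it. Bsg, a chaperone of MCT1, Acat2, the cytosolic thiolase, and Slc16a6, which exports 3-hydroxybutyrate from liver in zebrafish, were not called under either feed. Under PF the sign of all 3 turned with median centring and with upper-quartile scaling, and under LA that of Bsg turned. Slc16a3 was at most 0.808 FPKM in any library and was not tested. Oxct2a and Ffar3 are listed at 0 in all 16 libraries.

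Around the pathway, 9 of 14 beta-oxidation genes were called higher in liver under each feed and none lower, against the 10.2% and 10.7% of all tested genes called higher. Of 10 tested regulators of ketogenesis, 6 were called higher under LA and 5 under PF, and none lower. Of these, Creb3l3, Foxa2 and Hnf4a had means under 1 FPKM in both fat groups. They passed the filter of 1 FPKM in at least 4 libraries through liver, where they are high, so their calls are not independent of it. Of 6 genes for carnitine entry of fatty acids into mitochondria, 3 were called higher and 2 lower under LA, and 2 and 2 under PF. The shares of all tested genes called lower in liver were 35.6% under LA and 35.8% under PF. Bdh1 belongs to the SDR9C family of short-chain dehydrogenases, which also includes retinol and steroid dehydrogenases. Of its 6 listed relatives, 5 were called higher and 1 lower in liver under each feed. Rdh5 likewise needed its liver values to pass the filter, and Dhrs9 and the carnitine gene Cpt1b needed their fat values.

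The second comparison asked whether LA feed changed Bdh1 in liver. Mean Bdh1 was 11.2% lower in LA liver than in PF liver. The log2 fold change was -0.17 (SE 0.08, 95% interval -0.34 to 0.0023), and limma did not call it, with an adjusted p of 0.25. The 4 LA livers all lay below the 4 PF livers, at 177 FPKM for both the highest LA and the lowest PF liver (176.8 and 176.9). An exact two-sided permutation test gave p = 0.029, the smallest possible, or 0.048 adjusted over the 5 comparisons of Bdh1. This adjusted value is under 0.05 only because both tissue comparisons also gave the smallest possible p. Between the tissues, 79.7% of all tested genes under LA and 79.8% under PF did not overlap. The exact p was not adjusted over the feed comparisons alone. In the liver feed comparison 4.48% of tested genes were called and 12.3% did not overlap between the groups. The FPKM summed over a library did not overlap either, at 501595 to 556099 in LA liver and 559290 to 635810 in PF liver. The part of these sums in the Bdh1 difference was not tested. With median centring the log2 fold change of Bdh1 was -0.18, and with upper-quartile scaling it was -0.14. The exact test was not repeated with either scaling. Without PF liver replicate 1 the log2 fold change was -0.11, with a limma adjusted p of 0.49.

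Markers of cell types moved between the same livers. The hepatocyte list, of which 10 of 12 genes could be tested, summed to 29264 to 36064 FPKM in LA liver and 38745 to 47119 FPKM in PF liver; 1 gene was higher in the mean, 2 genes were called, and the median log2 fold change was -0.30. The macrophage list summed to 126 to 184 FPKM in LA liver and 86.8 to 102 FPKM in PF liver, with 6 of 6 tested genes higher, 3 of them called, and a median of 0.57. Emr1 and Marco of that list are listed at 0 in all libraries. Over all tested genes 4.48% were called, 2.27% higher and 2.21% lower, and the median was -0.002. The stellate or fibroblast list had 1 called gene of 5 tested, with a median of -0.15. The endothelial list had 1 of 4, with a median of -0.04. No gene of the remaining marker lists was called. The part of these shifts in the Bdh1 values was not tested, and in bulk tissue fewer cells of a type and less RNA per cell cannot be told apart.

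None of the 3 tested synthesis genes was called between the feeds in liver by limma, although the unadjusted p of 1 of them, Bdh2, was under 0.05. Their median log2 fold change was -0.07, against -0.002 for all tested genes. Acat1 had a log2 fold change of -0.07 (SE 0.08, limma adjusted p = 0.71), and its groups overlapped. Bdh2 had 11.8, 15.7, 16.6 and 22.8 FPKM in LA liver, against 8.98, 12.3, 13.2 and 11.3 FPKM in PF liver. These groups overlapped, and the log2 fold change of Bdh2 was 0.49 (SE 0.17, limma adjusted p = 0.15).

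**Figure D3:**
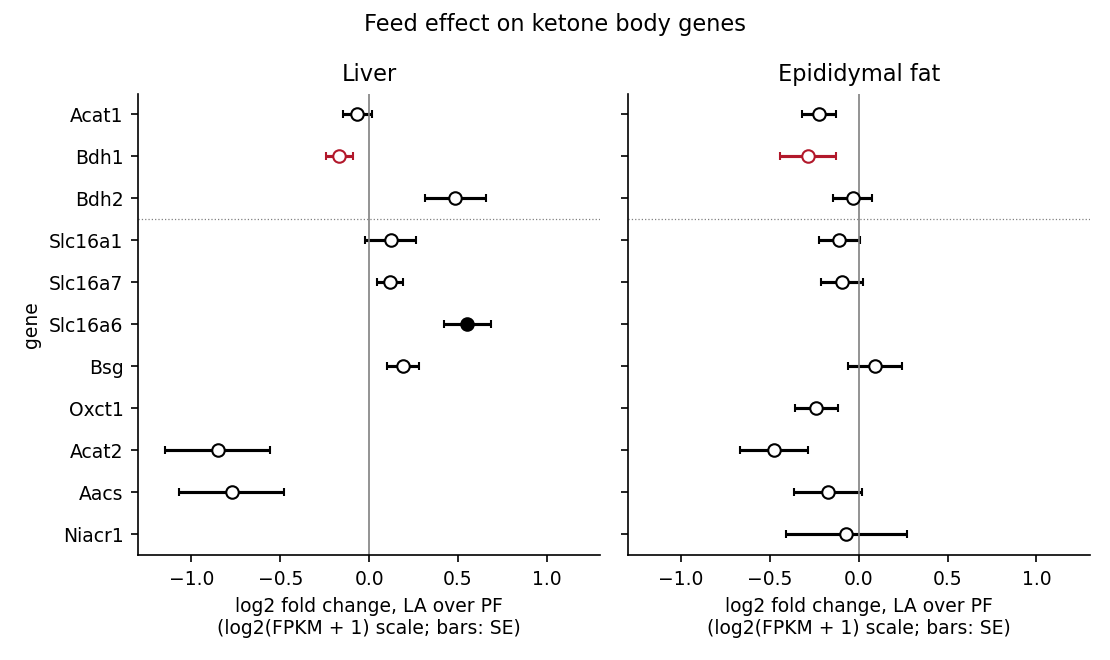
Log2 fold change of LA over PF with its standard error in liver (left) and epididymal fat (right), for synthesis genes above the dotted line and genes of use, transport and sensing below it, with Bdh1 in red. A filled point marks a call by limma at an adjusted p under 0.05, reached by Slc16a6 in liver alone, and genes too low to test in a tissue have no point. Slc16a6 passed the filter on low values through LA liver, the group where it is high.

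Of 6 tested genes for use, transport and sensing, 1 was called, against 4.48% of all tested genes. This was Slc16a6, which was higher under LA. It had 1.47, 1.43, 1.53 and 1.45 FPKM in LA liver, against 1.27, 0.516, 0.570 and 0.481 FPKM in PF liver. It thus reached 1 FPKM in every LA liver but in PF liver only in replicate 1. Slc16a6 therefore entered the test through the group where it was high, and its call is not independent of the filter. The groups did not overlap, and the log2 fold change was 0.55 (SE 0.13, limma adjusted p = 0.044). The call was lost in 7 of the 8 fits that left out a library, each except the fit without PF liver replicate 1, with adjusted p up to 0.11. It was also lost with a pseudocount of 0.1, without the filter on low values and with the replicate block. Slc16a6 overlaps the protein-coding gene Arsg, and the library kit does not mark strand, so reads of the overlap cannot be assigned. Acat2 had a log2 fold change of -0.85 (SE 0.30, limma adjusted p = 0.14), Aacs -0.77 (SE 0.30, 0.17), Slc16a1 0.12 (SE 0.14, 0.70), Slc16a7 0.12 (SE 0.08, 0.43) and Bsg 0.19 (SE 0.09, 0.26), none of them called. Without PF liver replicate 4 the log2 fold change of Acat2 was -0.56, with a limma adjusted p of 0.22.

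Of the 43 tested genes of the 6 lists, 4 were called in liver, against 4.48% of all tested genes. The 4 include Slc16a6, which passed the filter through LA liver. Slc25a20, the carnitine-acylcarnitine carrier of the inner mitochondrial membrane, was higher under LA, at 75.0, 75.6, 76.3 and 83.9 FPKM in LA liver, against 60.6, 66.7, 60.2 and 61.8 FPKM in PF liver (log2 fold change 0.31, SE 0.07, limma adjusted p = 0.029). That call was lost in 6 of 8 fits that left out a library, with adjusted p up to 0.091. It was kept without LA liver replicate 1 and without PF liver replicate 2. Slc25a20 overlaps a protein-coding gene model, LOC120094262, whose reads cannot be told apart from its own without strand. All 5 tested carnitine entry genes were higher in the mean under LA, and 1 was called. Hadh, a dehydrogenase of the beta-oxidation cycle, was lower, at 239, 253, 253 and 285 FPKM in LA liver, against 379, 329, 339 and 354 FPKM in PF liver (log2 fold change -0.44, SE 0.08, limma adjusted p = 0.014). It was the 1 called gene of 14 tested for beta-oxidation.

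Of 5 tested SDR9C relatives of Bdh1, 1 was called, against 4.48% of all tested genes. This was Rdh2, whose current symbol is Rdh16, a retinol dehydrogenase. It had 72.6, 115, 86.6 and 129 FPKM in LA liver, against 35.0, 31.6, 47.9 and 27.3 FPKM in PF liver. The log2 fold change was 1.48 (SE 0.20, limma adjusted p = 0.0032). Rdh2 and Rdh7 are close relatives that can share reads, so the split between them is uncertain. None of 10 tested regulators of ketogenesis was called by limma, and the unadjusted p was under 0.05 for 2 of them. Over all 6 lists the unadjusted p was under 0.05 for 20 of 43 genes, 7 of them for beta-oxidation and 4 for carnitine entry, against 20.1% of all tested genes.

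The third comparison asked the same of fat. Mean Bdh1 was 19.8% lower in LA fat than in PF fat. The log2 fold change was -0.28 (SE 0.16, 95% interval -0.64 to 0.07, limma adjusted p = 1.00), and an exact two-sided permutation test gave p = 0.17, or 0.21 adjusted over 5 comparisons. With limma 0.0174% of tested genes, 2 of 11501, were called in fat, Scd1 and the unnamed model LOC100359973, both named after their values were seen. Of 42 tested list genes none was called by limma, and the unadjusted p was under 0.05 for 2 of them, against 3.92% of all tested genes. Without LA fat replicate 4 the log2 fold change of Bdh1 was -0.17. It was -0.22 for Acat1 (SE 0.09) and -0.03 for Bdh2 (SE 0.11), and it was -0.24 for Oxct1 (SE 0.12), each with a limma adjusted p of 1.00.

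Markers of other cell types also differed between the fat libraries. The macrophage list summed to 321 to 572 FPKM in LA fat and 241 to 297 FPKM in PF fat, with 5 of 5 tested genes higher in the mean under LA, none called by limma, and a median log2 fold change of 0.44. The mesothelial list summed to 101 to 293 FPKM in LA fat and 35.1 to 261 FPKM in PF fat, with 3 of 3 higher in the mean, none called and a median of 0.51. The epididymis list reached 9.79 FPKM in PF fat replicate 4, of which Lcn5 made up 9.61 FPKM, and at most 0.338 FPKM in LA fat. Crisp1 and Spag11b of that list are listed at 0 in all libraries. Without PF fat replicate 4 the log2 fold change of Bdh1 in fat was -0.22. The part of the macrophage and mesothelial markers in the Bdh1 values was not tested.

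Hepatocyte transcripts were present at a low level in every fat library and varied between them. The 12 markers summed to 320 to 1159 FPKM in LA fat and 739 to 1330 FPKM in PF fat, with 0 of 12 higher in the mean under LA, none called by limma, and a median log2 fold change of -0.74. Much of these sums came from Tf and Alb, which have no liver value here. Tf had 229 to 344 FPKM in LA fat and 279 to 387 FPKM in PF fat. Alb varied more, from 51.2 to 500 FPKM in LA fat and from 245 to 581 FPKM in PF fat. Over the 10 markers with a liver value, fat held a median of 0.457% of the liver level under LA and 0.579% under PF, with the highest marker at 0.694% and 0.745%. Bdh1 in fat, at 4.99% and 5.53% of its liver level, was above every one of them.

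Per library, the median marker level was 0.405%, 0.315%, 0.948% and 0.109% of liver in LA fat, and 0.540%, 0.400%, 0.462% and 0.913% in PF fat. A share of liver RNA of that size would carry 0.184 to 1.74 FPKM of Bdh1. After that amount was subtracted, Bdh1 stood at 8.49, 8.16, 8.02 and 6.17 FPKM in LA fat, against 9.68, 10.9, 6.85 and 10.3 FPKM in PF fat. The log2 fold change was then -0.25 (SE 0.15, limma adjusted p = 1.00), and liver over fat became 4.30 under LA and 4.21 under PF.

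**Figure D4:**
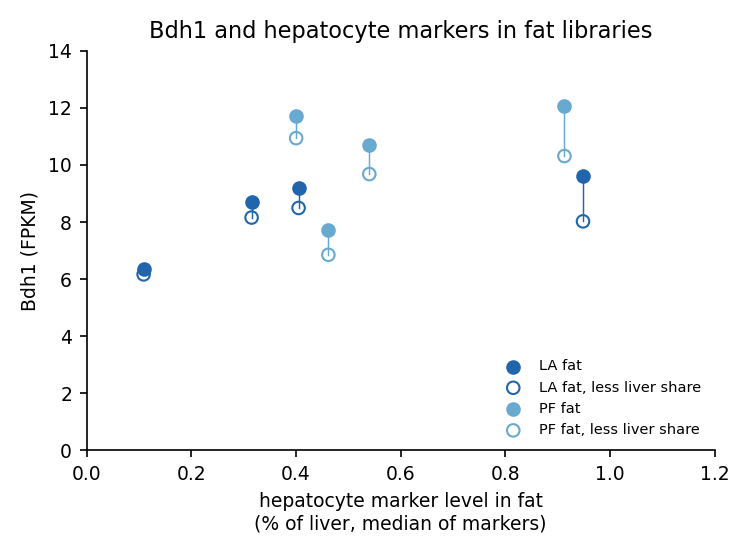
Bdh1 in FPKM in the 8 fat libraries against the median level of 10 hepatocyte markers as a percentage of their liver mean, with filled points as deposited and open points after subtraction of a liver share of that size. The subtraction removes at most 1.74 FPKM. The LA fat library with the lowest marker level, 0.109%, also has the lowest Bdh1, 6.35 FPKM. The PF fat library with the lowest marker level of its group, 0.400%, has 11.7 FPKM of Bdh1.

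The fourth comparison asked whether the effect of LA on Bdh1 differed between the tissues. The difference of the log2 fold changes, liver minus fat, was 0.12 (SE 0.18, 95% interval -0.26 to 0.50, limma adjusted p = 0.96). An exact two-sided permutation test within tissues, over 4900 arrangements, gave p = 0.61. Over all genes 0.381% were called for this difference. None of the 47 tested list genes was called by limma, and the unadjusted p was under 0.05 for 11 of them, against 8.2% of all tested genes.

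The level of Bdh1 relative to 2 partners, Acat1 and Bdh2, within a library was compared between the feeds in 4 ratios, chosen after the values were seen. Relative to Acat1, the log2 ratio of Bdh1 was -0.13 ± 0.09 in LA liver and -0.03 ± 0.12 in PF liver (SD, n = 4 each, exact permutation p = 0.29). Relative to Bdh2 it was 3.38 ± 0.42 in LA liver and 4.07 ± 0.36 in PF liver (SD, n = 4 each, exact permutation p = 0.057). None of the 4 ratios passed, with exact permutation p adjusted over the 4 of 0.17 or more.

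Genes whose pattern was most like that of Bdh1 were ranked by Pearson correlation of log2 levels, as a description. Across all 16 libraries, which fall into the 2 tissues, the likest of 10286 genes were Apoa5, Hpn, Proz, Cyp4f1 and Itih1, each with r of 0.998, and Apoa5 had means of 278 FPKM in LA liver and 1.89 FPKM in LA fat, and 341 FPKM in PF liver and 2.65 FPKM in PF fat. After the mean of each tissue was removed, the likest were Hist2h2aa3 (r = 0.90), a histone gene with near-identical copies whose reads are uncertain, Alad (0.90), Slc25a1 (0.89), Poldip2 (0.89) and Prkaca (0.88). Alad, an enzyme of haem synthesis, had 95.9 ± 3.06 FPKM in LA liver and 120 ± 3.49 FPKM in PF liver, and 40.0 ± 5.47 FPKM in LA fat and 49.7 ± 8.94 FPKM in PF fat (SD, n = 4 each). Slc25a1, the mitochondrial citrate carrier, had 79.4 ± 4.93 FPKM in LA liver and 106 ± 3.79 FPKM in PF liver, and 90.4 ± 25.4 FPKM in LA fat and 161 ± 53.6 FPKM in PF fat (SD, n = 4 each). Both were lower in the mean under LA in both tissues, as Bdh1 was. The ranking kept the difference between the feeds, so it favours genes that share this direction.

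Over the 8 liver libraries alone, of 10191 genes, the likest were Pvrl2 (r = 0.97), R3hdm2 (0.95), Dnajb12 (0.95), Prkab1 (0.94) and Synrg (0.94). In the same libraries the r of Bdh1 was 0.49 with Acat1 and -0.83 with Bdh2. With the tissue means removed over 16 libraries it was 0.77 with Acat1 and -0.08 with Bdh2. All these correlations share the libraries and their scaling.

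The gene lies on chromosome 11 of the GRCr8 rat assembly, where RefSeq lists 6 transcripts and an older symbol, Bdh. None of its tested neighbours was called higher in liver, against 10.2% of all tested genes under LA and 10.7% under PF. The neighbours are too few to compare with such shares. Pigz had log2 fold changes of liver over fat of -3.36 under LA and -3.56 under PF, Ppp1r2 -1.89 and -2.04, and Acap2 -1.24 and -1.10. All were called lower in liver by limma, against 35.6% of all tested genes under LA and 35.8% under PF. The median tested gene was itself at -0.65 under LA and -0.66 under PF, and values with median centring are not given for these neighbours. Pigz had means of 0.292 FPKM in LA liver and 0.175 FPKM in PF liver, so it passed the filter on low values through fat. Dlg1 had -0.59 and -0.53 and was not called. Meltf, listed as Mfi2, was too low to test, and Apod is listed at 0 in every library. A long noncoding RNA, LOC134481093, overlaps Bdh1 and has no row of its own here, and since strand was not marked, its reads cannot be told apart from those of Bdh1.

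Because the tissue difference is the largest of the 5 comparisons of Bdh1, the sequence before its annotated start is shown, taken from RefSeq on GRCr8. It is the 250 bases at chr11:82842637-82842886 on the minus strand, 5′ to 3′, and capitals mark the 1 match to a GC box, 55 bases before the start on the opposite strand.
Bdh1 upstream: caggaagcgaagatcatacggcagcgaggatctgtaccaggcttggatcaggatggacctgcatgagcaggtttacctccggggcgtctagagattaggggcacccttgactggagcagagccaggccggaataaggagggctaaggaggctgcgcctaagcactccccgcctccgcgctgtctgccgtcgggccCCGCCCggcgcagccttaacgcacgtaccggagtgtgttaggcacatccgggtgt
Over 300 bases, these and the 50 after the start, G and C made up 62%, more than in 78.2% of 33469 rat promoters of that length, whose median was 51.7%. The window held 21 CpG dinucleotides, against a median of 7. Searched on both strands, the GC box GGGCGG occurs in 33.1% of these promoters. No match was found for a nuclear receptor direct repeat (held by 0.0538% of promoters), its half-site AGGTCA (16.2%), the E-box CACGTG (6.42%), CCAAT (37.5%), TATAAA (14.2%), the forkhead core TGTTTAC (3.78%) or TGACG (21.2%). The half-site is part of the direct repeat. This window covers 1 annotated start, and starts of other transcripts were not searched.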

How the data were processed

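RNA was measured in 16 libraries, 4 for each tissue and feed. Per the labels' protocols, RNA came from TRIzol extraction and RNeasy purification, and the library kit was TruSeq V2, which does not mark strand. CASAVA 1.8.2, TopHat (version given as 0.12.8) and Cuffdiff are named in the submitters' processing notes. The build is not given in the sources used here, nor is the annotation. Each deposited file lists FPKM per gene symbol, computed by the authors, per the file headers. No counts are held, so depth is known only as a ratio between libraries and no count model was used.

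The test was limma (3.58.1, under R 4.3.3) on log2(FPKM + 1), moderated along the trend of variance on level. Genes needed 1 FPKM in at least 4 libraries of a fit, and p-values were adjusted over all of them by the Benjamini-Hochberg method. Liver and fat were fitted apart for the feed comparisons, and all 16 libraries together for the tissue comparisons and for the difference of feed effects. A call required an adjusted p under 0.05. Tissue calls also required a log2 fold change beyond 1 in either direction. Labels do not say which liver and fat libraries share a rat, so libraries were treated as independent. Bdh1 was also tested alone by exact permutation of log2 values, with adjustment over its 5 comparisons.

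Bdh1 and the lists were chosen with earlier results of these data known. Some genes of the synthesis list are not reported here and are left out of its counts. The remaining members of that list and all of the use, transport and sensing list are named, with called genes of the other lists, the 5 genes likest to Bdh1 by each of 3 correlations, and its neighbours. Hcar2, Eci1, Rdh16, Plin1 and Adgre1 were matched by older symbols, and Mlxipl, Sdr9c7, Plin4 and Kdr were not matched. Marker lists of other cell types were read in all libraries. The subtraction of a liver share, the median over hepatocyte markers of the fat value over the liver mean of the same feed, was added after seeing the data. Alternatives were another pseudocount, filters, scalings, a replicate block, no trend, other sets of libraries in the fit and leaving out each library. The fit was tested on simulated data for each comparison. No pair of libraries within a group held identical values, and their log2 values correlated at 0.986 to 0.996 across genes. Figures were drawn with matplotlib 3.10.9.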

Additional observations from a re-analysis of the deposited data

Results flagged for a closer look

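Of 37 sets of 4 libraries of ketone body genes that were examined, 1 held a library whose gap to the nearest other as a part of the group's range exceeded Dixon's 95% critical value, and chance alone gives about 1 in 20. Acat2 in PF liver was highest in replicate 4, at 39.6 FPKM, against 18.4, 15.1 and 18.9 FPKM in the other PF livers. None of the 4 groups held such a Bdh1 value.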

How the results depend on the processing

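In limma all 5 Bdh1 results kept their direction and their side of the threshold in every alternative run, 16 in liver, 17 in fat, 17 for each tissue comparison and 24 for the difference. The exact permutation tests were not repeated under these alternatives. The liver value lay between -0.20 (without PF liver replicate 3) and -0.11, with limma adjusted p of 0.22 to 0.67, and the fat value between -0.41 (without PF fat replicate 3) and -0.17. The difference between tissues lay between 0.00012 (without LA fat replicate 4) and 0.25 (without PF fat replicate 3). Liver over fat lay between 4.07 and 4.87 under LA and between 3.94 and 4.76 under PF.

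In their deviations, same-numbered libraries correlated at -0.43 to -0.057 between LA fat and PF fat and at -0.0035 to 0.15 between LA liver and PF liver. Between liver and fat of the same feed they correlated at -0.22 to 0.29. There the same number was the best match for LA liver replicates 2 and 3 and PF liver replicates 1, 2 and 3. It was not for LA liver replicates 1 and 4 or PF liver replicate 4. These values do not settle whether the numbers mark a pairing. With the replicate block Bdh1 had -0.17 in liver, -0.28 in fat, 4.18, 4.07 and 0.12, and 476 genes were called in liver against 435, 1 in fat against 2, and 32 for the difference against 46. Under the block the list genes called in liver were 8 rather than 4: Acat2, Aacs, Hadhb, Crat, Fgf21 and Foxa2 were added (limma adjusted p = 0.05, 0.032, 0.025, 0.039, 0.0022 and 0.034), Slc16a6 and Slc25a20 were lost, and Hadh and Rdh2 kept their call. That made 2 regulators against 0 and 2 beta-oxidation genes against 1.

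Centring and upper-quartile scaling turned the sign of liver over fat for Bsg under LA (0.60 and 0.46) and, under PF, for Bsg (0.50 and 0.34), Bdh2 (0.47 and 0.27), Acat2 (0.37 and 0.19) and Slc16a6 (0.62 and 0.15). Leaving out single libraries turned the sign of feed effects near 0, with ranges of -0.013 to 0.20 for Slc16a1 in liver and, in fat, -0.45 to 0.10 for Niacr1, -0.034 to 0.22 for Bsg and -0.12 to 0.023 for Bdh2. Counts of called genes fell to 208 in liver without LA liver replicate 2 and 267 without PF liver replicate 1. In fat they ranged from 0 (without LA fat replicate 2 or 3) to 7 (all libraries in a single model), and for the difference from 19 to 80. The cause was not tested. With 4 rats a group and depth unknown, small shifts of Bdh1 cannot be resolved.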

Other observations

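Among the 6 gene lists, Echs1, the enoyl-CoA hydratase of the beta-oxidation cycle, was likest to Bdh1 once the mean of each tissue was removed, with r of 0.88 and place 7 of 10286 genes, and it was singled out after its values were seen. It had 389, 334, 363 and 410 FPKM in LA liver, against 436, 451, 415 and 432 FPKM in PF liver. These groups did not overlap, which held for 12.3% of all tested genes. In fat Echs1 had 174, 150, 182 and 139 FPKM under LA, against 207, 199, 159 and 225 FPKM under PF. LA fat replicate 4 and PF fat replicate 3 were the lowest of their groups, as for Bdh1. Its choice by correlation with Bdh1 over the same libraries favours such likeness in both tissues. The log2 fold change of LA over PF was -0.22 in liver (SE 0.08, limma adjusted p = 0.18) and -0.29 in fat (SE 0.13, limma adjusted p = 1.00), and neither was called.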
